A study of Mus musculus with 9 samples.

Results

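Gene expression of D2.OR cells grown in fibrillar collagen I was set against that of the same cells in Matrigel, with 3 arrays titled as fibrillar collagen and 3 titled as Matrigel. These are 6 of the 9 arrays of the study, and 19938 genes were tested. D2.OR is a mouse mammary tumour line used as a model of tumour cell dormancy. All 9 arrays carry total RNA of this line from 3D culture, and the other 3 are of non-fibrillar collagen I. By its title, the study is about collagen fibrils and the protection against breast cancer that a pregnancy gives. RNA was taken with Trizol and labelled as biotin cRNA. No label names a drug, a genetic change or a time in culture for any group. Group membership was taken from the titles, because the growth label of the Matrigel arrays has the same text as that of the non-fibrillar arrays and the design text speaks of the collagen conditions only. The Matrigel arrays have higher accession numbers than the other 6. A batch that goes with that order and the Matrigel group cannot be told apart. The labels do not say whether replicates were separate cultures, and the p-values below therefore describe the spread between arrays, which may be technical.

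Fibrillar collagen I is the main structural protein of connective tissue, and cells attach to it through collagen-binding integrins, of which Itga2 encodes a chain, and through discoidin domain receptors. Matrigel is an extract of basement membrane from a mouse sarcoma, rich in laminin and type IV collagen, which cells bind through laminin-binding integrins, syndecans and glycosylated dystroglycan. Mammary epithelial cells in laminin-rich gels tend to form quiescent, polarised clusters, whereas collagen I is known to favour spreading, proliferation and invasion of mammary tumour cells.

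The deposited values are log2 expression after RMA, a method that corrects background, normalizes the arrays to one distribution and summarizes probes. Array medians lay between 5.98 and 6.05, and single values between 2.11 and 14.08. The epithelial keratins Krt8, at 13.12 to 13.33 over all 9 arrays, and Krt18, at 12.60 to 12.93, and the cadherin Cdh1, at 9.001 to 9.12, were among the epithelial markers of the line. Epcam lay at 5.84 to 6.24 and Krt19 at 5.14 to 5.45, near or below the array medians. Other members of the epithelial list were below them: Cldn4 at 5.71 to 5.97, Rab25 at 5.27 to 5.51, Esrp1 at 4.64 to 4.91 and Grhl2 at 4.45 to 4.74. The rest lay above, Krt7 at 9.42 to 10.68, Cldn7 at 6.74 to 7.04 and Cldn3 at 6.31 to 6.53. Vim, a mesenchymal filament protein, lay at 13.37, 13.36 and 13.33 in fibrillar collagen and 13.29, 13.31 and 13.33 in Matrigel. Several defining markers of other cells lay below the array medians: over the 9 arrays the leukocyte gene Ptprc lay at 4.72 to 5.12, the macrophage genes Csf1r at 4.72 to 4.84 and Adgre1 at 3.83 to 4.09, the endothelial gene Pecam1 at 4.85 to 5.02, the fibroblast gene Dcn at 4.32 to 4.58 and the adipocyte gene Adipoq at 3.99 to 4.11. Other markers on the same lists lay well above the medians. On the fibroblast list these were Pdgfra at 10.12 to 11.36, Col1a1 at 8.55 to 8.73, Pdgfrb at 7.44 to 8.18 and Col6a3 at 7.28 to 7.60. The adipocyte list had Pparg at 9.27 to 9.97, Lpl at 8.90 to 9.74 and Pnpla2 at 8.93 to 9.45, the endothelial list had Flt1 at 8.97 to 9.39, and the macrophage list had Cd68 at 7.56 to 9.07 and Cd14 at 7.49 to 8.12. In bulk RNA of this kind, fewer cells of one state and less RNA per cell cannot be told apart.

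Of the 19938 genes, 762 passed limma's test at an adjusted p of 0.05, which is 3.82% of those tested. The higher calls were 1.45% and the lower calls 2.37% of all genes, and these shares are the background for every list below. The median log2 difference over all genes was 0.0028, and the median size among the called genes was 0.31. Of these, 29 were higher by more than 0.5 and 120 were lower by more than 0.5. The fibrillar and Matrigel arrays did not overlap in 20.4% of all genes tested and in every one of the 762 called genes. Groups said below to be apart therefore add nothing to a call, and in a gene without a call they are common. The balance of directions moved with the scaling. With the values quantile-normalized again the calls were 373 higher and 366 lower, so 50.5% were higher in place of 37.9%, and with array medians set equal they were 293 higher and 370 lower. The number of calls depended on single arrays. It fell to 434, 419 and 462 without fibrillar replicate 1, 2 or 3, and to 353 and 488 without Matrigel replicate 2 or 3. No called gene changed sign in any of the 9 refits, each of which left out 1 array. All errors below are limma's standard errors of a log2 difference, with n = 3 arrays per group, and a difference is fibrillar minus Matrigel.

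The genes with the largest differences in each direction are shown by array in the plot of the 40 leading genes. Those higher in fibrillar collagen included the interleukin Il1a, the keratin Krt7, the urokinase gene Plau, the matrix glycoprotein gene Tnc and the collagen receptor chain Itga2. Those lower included the selenium carrier Selenop, the monoacylglycerol lipase Mgll, the aspartyl protease Bace2 and the vessel growth factor Angpt1. Selenop had the largest difference of all called genes. Its log2 values were 6.76, 6.85 and 7.12 in fibrillar collagen and 8.65, 8.76 and 8.65 in Matrigel, a fold of 3.43 (log2 difference -1.78 ± 0.12, adjusted p = 0.000173). The fibrillar arrays all lay below the Matrigel arrays by more than 1 log2 unit. Parm1, which encodes a mucin-like membrane protein, had values of 6.78, 6.89 and 6.92 against 8.24, 8.34 and 8.34 (log2 difference -1.45 ± 0.059, adjusted p = 8.74e-06). Its replicates were close together and the groups far apart.

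**Figure D1:**
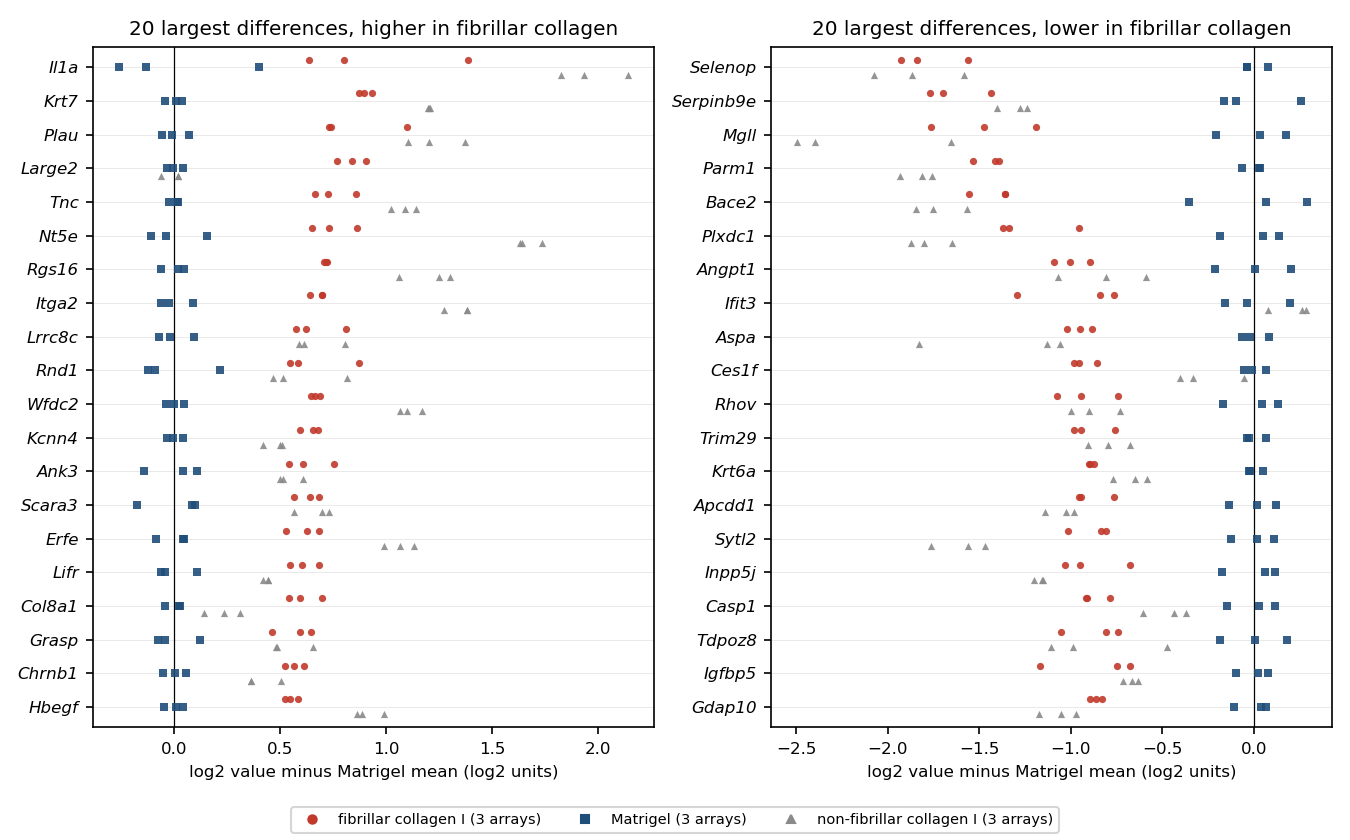
Log2 values of the 20 genes with the largest higher differences (left) and the 20 with the largest lower differences (right), each array minus the gene's Matrigel mean. Fibrillar arrays (red circles) and Matrigel arrays (blue squares) do not overlap in any of the 40 genes, which the choice of genes requires, and the non-fibrillar arrays (grey triangles) lie beside fibrillar collagen for Selenop and beside Matrigel for Large2.

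Several other leading genes encode membrane channels, receptors and enzymes at the cell surface. Nt5e, the ectoenzyme that makes adenosine from AMP, was measured at 9.99, 9.86 and 9.78 in fibrillar collagen and 9.28, 9.01 and 9.09 in Matrigel (log2 difference 0.75 ± 0.077, adjusted p = 0.000902). Kcnn4, a calcium-activated potassium channel, rose by 0.64 ± 0.044 (adjusted p = 0.000173), and Lrrc8c, a subunit of the volume-regulated anion channel, by 0.67 ± 0.079 (adjusted p = 0.00209). Lifr, the leukaemia inhibitory factor receptor, rose by 0.61 ± 0.055 (adjusted p = 0.000521). Ank3, the membrane scaffold ankyrin-G, rose by 0.63 ± 0.074 (adjusted p = 0.00207). The arrays of the groups were apart in each. Among genes that fell, Sytl2, a Rab effector in secretory vesicle transport, differed by -0.89 ± 0.089 (adjusted p = 0.000844), and Inpp5j, an inositol polyphosphate phosphatase, by -0.89 ± 0.097 (adjusted p = 0.00133).

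Other leading genes had less shared function. Erfe, which encodes the hormone erythroferrone, was at 8.81, 8.66 and 8.76 in fibrillar collagen and 8.17, 8.04 and 8.18 in Matrigel (log2 difference 0.61 ± 0.059, adjusted p = 0.000665). Chrnb1, a subunit of the muscle acetylcholine receptor, was at 8.26, 8.17 and 8.21 against 7.59, 7.70 and 7.65 (log2 difference 0.57 ± 0.053, adjusted p = 0.000549). Apcdd1, an inhibitor of Wnt signals at the membrane, was at 7.55, 7.56 and 7.74 against 8.37, 8.62 and 8.52 (log2 difference -0.89 ± 0.077, adjusted p = 0.000443). The groups were apart on all 6 arrays for each. Trim29, a tripartite motif protein of basal epithelia, differed by -0.90 ± 0.074 (adjusted p = 0.000346). Aspa, which splits N-acetylaspartate, was at 5.75, 5.69 and 5.62 against 6.73, 6.58 and 6.62 (log2 difference -0.95 ± 0.17, adjusted p = 0.0142) and lost its call without fibrillar replicate 2 or 3 or Matrigel replicate 1 or 2 (adjusted p up to 0.0589). Ces1f, a carboxylesterase with close copies, differed by -0.93 (adjusted p = 0.000521).

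Genes were then read through 51 lists of pathways, families and cell type markers, with 1499 different measured genes of which 84 were called higher and 127 lower. The lists were drawn up with earlier results of these data known, so the 14.1% called among their genes is not evidence about lists as such, and each list is described by its own count and median. The plot of calls by list shows where they lay: interferon response genes on the lower side and mitosis genes on the higher side.

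**Figure D2:**
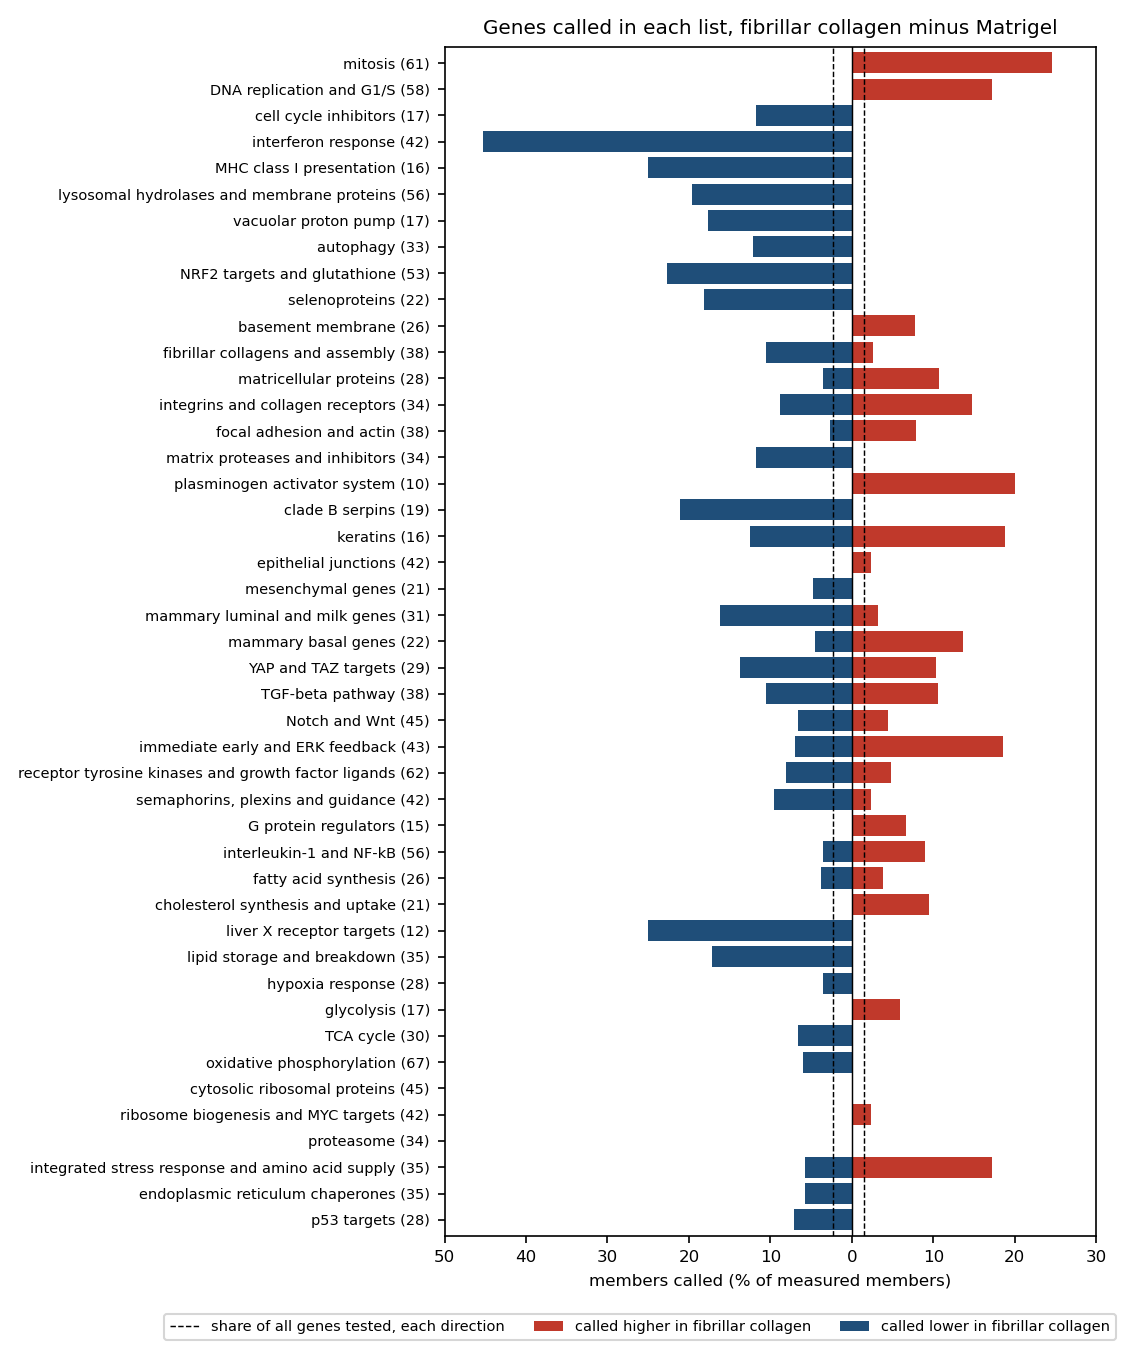
Percentage of measured members called higher (red, right) or lower (blue, left) in fibrillar collagen for each list other than the cell type markers, with the number of measured members in parentheses. Dashed lines mark the background of 1.45% higher and 2.37% lower over all 19938 genes. The interferon bar reaches 45.2% on the lower side and the mitosis bar 24.6% on the higher side.

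Integrins and other matrix receptors changed in both directions: of 34 measured, 5 rose and 3 fell, with a list median of 0.04. The chain that pairs with integrin beta-1 to bind collagen was among those that rose. Itga2 was at 7.20, 7.20 and 7.15 in fibrillar collagen against 6.45, 6.59 and 6.48 in Matrigel, a fold of 1.60 (log2 difference 0.68 ± 0.052, adjusted p = 0.000264). The fibrillar arrays were close together and all above Matrigel. Itga1, the other collagen-binding chain named here, was at 5.67, 5.49 and 5.49 against 5.91, 5.72 and 5.72 and did not pass (adjusted p = 0.13), with every fibrillar array on the low side. Chains of laminin-binding integrins also rose. Itga3 was at 10.19, 10.05 and 10.10 against 9.61, 9.65 and 9.70 (log2 difference 0.46 ± 0.051, adjusted p = 0.00144). Itgb4, a hemidesmosome chain, was at 10.001, 9.95 and 9.91 against 9.43, 9.52 and 9.63 (log2 difference 0.43 ± 0.064, adjusted p = 0.00708). Its groups did not overlap.

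The heparan sulphate proteoglycans on the same list differed in sign from one another. The syndecans Sdc1 and Sdc3, co-receptors for laminin and growth factors, fell. Sdc1 was at 11.04, 10.97 and 10.99 against 11.45, 11.38 and 11.40 (log2 difference -0.41 ± 0.041, adjusted p = 0.000858), and Sdc3 at 10.19, 10.19 and 10.21 against 10.60, 10.56 and 10.64 (log2 difference -0.40 ± 0.042, adjusted p = 0.000932). The glypican Gpc1 was at 10.54, 10.52 and 10.47 against 10.21, 10.28 and 10.21 (log2 difference 0.27 ± 0.040, adjusted p = 0.00669). Every fibrillar array was below every Matrigel array for the syndecans and above for the glypican. Large2, a glycosyltransferase that extends the laminin-binding sugar chain of dystroglycan, was at 9.35, 9.28 and 9.41 in fibrillar collagen and 8.48, 8.50 and 8.55 in Matrigel (log2 difference 0.84 ± 0.048, adjusted p = 7.5e-05), with non-fibrillar arrays at 8.53, 8.45 and 8.53. Fibrillar arrays were the high group and the other 6 overlapped. The integrin chain Itgb8, which takes part in release of active TGF-beta, had a difference of -0.41 (adjusted p = 0.0378) that lost its call in every refit but those without Matrigel replicate 1 and non-fibrillar replicate 2 (adjusted p up to 0.121).

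Genes for the matrix itself moved in part. Of 26 basement membrane genes 2 rose and none fell, both laminin chains. Lama5 was at 9.92, 9.83 and 9.94 in fibrillar collagen against 9.55, 9.58 and 9.61 in Matrigel (log2 difference 0.32 ± 0.044, adjusted p = 0.00442). Lamb1 differed by 0.27 (adjusted p = 0.0224) and lost the call without fibrillar replicate 1 or Matrigel replicate 1 or 2 (adjusted p up to 0.0687). The first laminin chains on the list, Lama1 and Lama2, did not pass (adjusted p = 0.913 and 0.315). The fibrillar collagen and assembly list had 38 members, with 1 higher and 4 lower. The genes of collagen I itself did not pass: Col1a1 was at 8.70, 8.65 and 8.71 against 8.68, 8.71 and 8.73 and Col1a2 at 6.24, 6.23 and 6.38 against 6.21, 6.23 and 6.20. The groups overlapped for Col1a1 and did not for Col1a2. None of 15 fibroblast markers was called by limma, with 2 at an unadjusted p under 0.05, and their summed level (log2 of the sum of unlogged values) was 11.54 to 11.70 on the fibrillar and 11.72 to 11.91 on the Matrigel arrays.

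Col8a1, a short-chain collagen of vessel and basement membrane networks, was the collagen that rose, at 9.78, 9.72 and 9.88 against 9.14, 9.20 and 9.21 (log2 difference 0.61 ± 0.057, adjusted p = 0.000549). The lower collagens included chains of beaded filaments and of a fibril-associated collagen. Col6a2 was at 11.02, 11.02 and 11.10 against 11.30, 11.39 and 11.46 (log2 difference -0.34 ± 0.055, adjusted p = 0.0107), and Col12a1 at 7.76, 7.73 and 7.75 against 8.04, 8.25 and 8.38 (log2 difference -0.48 ± 0.076, adjusted p = 0.00977). Neither overlapped between the groups. Col6a1 fell by 0.31 (adjusted p = 0.0195) and Col5a3 by 0.19 (adjusted p = 0.0321), and lost their calls, Col6a1 without fibrillar replicate 1, 2 or 3 or Matrigel replicate 2 or 3 (adjusted p up to 0.0647) and Col5a3 in every refit but that without non-fibrillar replicate 3 (up to 0.106). The 4 lower collagens became 2 without fibrillar replicate 1, 2 or 3 or Matrigel replicate 2 or 3, and quantile normalization again gave 2 higher ones. Among 28 matricellular and related genes 3 rose and 1 fell. Tnc, the tenascin of remodelling tissue, was at 7.84, 7.64 and 7.71 against 6.95, 6.996 and 6.99, a fold of 1.68 (log2 difference 0.75 ± 0.056, adjusted p = 0.000224). Matn2, a matrilin that bridges matrix filaments, was at 8.42, 8.28 and 8.37 against 8.99, 8.88 and 8.93 (log2 difference -0.58 ± 0.093, adjusted p = 0.00998). For both genes the groups were apart, in opposite directions. The 3 higher matricellular calls became 1 without fibrillar replicate 1 or 2 or Matrigel replicate 2 or 3 or non-fibrillar replicate 2 or 3, and the lower call became 2 without Matrigel replicate 2 or non-fibrillar replicate 3.

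**Figure D3:**
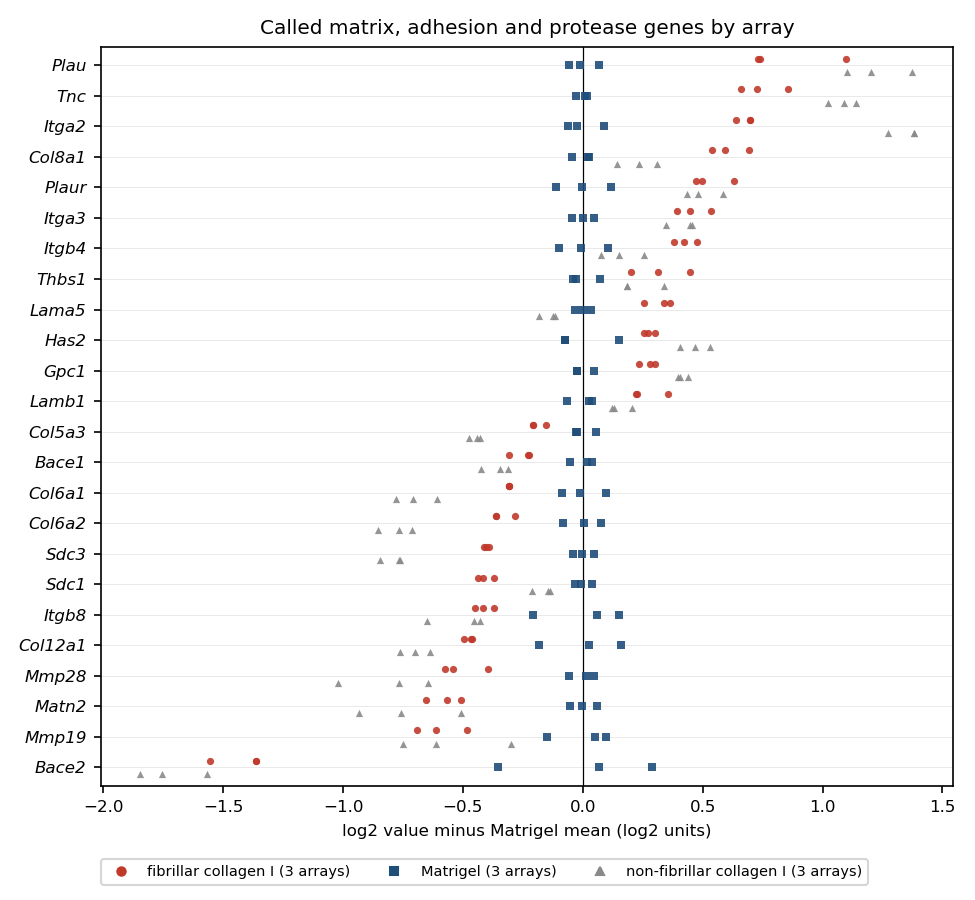
Log2 values by array, minus the gene's Matrigel mean, for the named called genes of the basement membrane, collagen, matricellular, integrin, matrix protease and plasminogen activator lists. Itga2, Plau and Tnc are highest in non-fibrillar collagen and lowest in Matrigel, while for Lama5 the non-fibrillar arrays lie below Matrigel.

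In the plasminogen activator system 2 of 10 members rose and none fell. The protease urokinase, Plau, was at 8.94, 8.58 and 8.59 in fibrillar collagen and 7.92, 7.79 and 7.84 in Matrigel, a fold of 1.81 (log2 difference 0.86 ± 0.10, adjusted p = 0.00209). Its receptor Plaur was at 10.88, 10.75 and 10.72 against 10.37, 10.25 and 10.14 (log2 difference 0.53 ± 0.069, adjusted p = 0.00332). Ligand and receptor both lay above all Matrigel arrays, and the activator Plat did not pass (adjusted p = 0.657). Of 34 matrix proteases and inhibitors 4 fell and none rose. Bace2 was at 5.69, 5.88 and 5.88 against 6.89, 7.53 and 7.31 (log2 difference -1.43 ± 0.14, adjusted p = 0.000822), with a wider spread among the Matrigel than the fibrillar arrays. The metalloproteinases Mmp19 and Mmp28 differed by -0.60 and -0.50 (adjusted p = 0.0195 and 0.0148). Mmp19 lost its call without fibrillar replicate 1 or 3 or Matrigel replicate 2 or 3 (adjusted p up to 0.0792) and Mmp28 without fibrillar replicate 1 or 2 or Matrigel replicate 1 or 3 (up to 0.0607). The protease count was 2 without fibrillar replicate 1 or 2 or Matrigel replicate 2 or 3.

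Clade B serpins, intracellular protease inhibitors, fell in 4 of 19 members and rose in none, with a list median of -0.11. Serpinb9, an inhibitor of granzyme B, was at 8.28, 8.15 and 8.16 against 8.79, 8.69 and 8.72 (log2 difference -0.54 ± 0.058, adjusted p = 0.00131). The related Serpinb9b was at 6.82, 6.71 and 6.88 against 7.61, 7.58 and 7.47 (log2 difference -0.75 ± 0.054, adjusted p = 0.000204). Serpinb9e was at 7.38, 7.05 and 7.12 against 9.07, 8.72 and 8.66, a fold of 3.11 (log2 difference -1.64 ± 0.12, adjusted p = 0.000189). These 3 genes are close copies in one mouse gene cluster, so probes may read more than 1 of them. Serpinb5, the mammary serpin maspin, was at 6.87, 6.74 and 6.68 against 7.25, 7.19 and 7.20 (log2 difference -0.45 ± 0.072, adjusted p = 0.00967). No group overlapped another for these genes, and the same 4 were called in each refit without an array.

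Keratins were called in 5 of 16 members, 3 higher and 2 lower. Krt7, a keratin of simple ductal epithelium, had the smallest adjusted p of the higher genes. It was at 10.40, 10.34 and 10.36 in fibrillar collagen and 9.50, 9.42 and 9.48 in Matrigel, a fold of 1.87 (log2 difference 0.90 ± 0.039, adjusted p = 8.74e-06). Krt18, a partner of Krt8 in luminal filaments, was at 12.90, 12.82 and 12.82 against 12.61, 12.60 and 12.65 (log2 difference 0.23 ± 0.040, adjusted p = 0.0144) and lost its call without Matrigel replicate 2 (adjusted p = 0.0586). Krt6a, a keratin of stratified and activated epithelium with close copies, was at 7.497, 7.47 and 7.47 against 8.34, 8.35 and 8.42 (log2 difference -0.89 ± 0.052, adjusted p = 7.5e-05). Of Krt7 and Krt6a, the simple keratin was the high one and the stratified keratin the low one in fibrillar collagen. The simple keratins Krt8 and Krt19 did not pass (adjusted p = 0.143 and 0.443). The third higher keratin, Krt80, differed by 0.20 to 0.29 over the refits. It lost its call in 7 of the 9 refits (adjusted p up to 0.1). The basal keratin Krt14 fell by 0.17 (adjusted p = 0.0414), a call lost in every refit but that without Matrigel replicate 2 (adjusted p up to 0.111) and with either rescaling. The higher keratins numbered 1 without Matrigel replicate 2 and the lower 1 without fibrillar replicate 1, 2 or 3 or Matrigel replicate 1 or 3 or non-fibrillar replicate 1, 2 or 3, with 1 lower under either rescaling. The summed level of 12 epithelial markers was 14.22 to 14.31 on the fibrillar and 14.04 to 14.06 on the Matrigel arrays. Without its called members the sum was 13.37 to 13.46 and 13.27 to 13.28, and its part in the keratin result was not tested.

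Junction and mesenchymal genes showed few calls. Of 42 epithelial junction genes 1 rose, the protease inhibitor Spint2 (log2 difference 0.25 ± 0.042, adjusted p = 0.0115), and of 21 mesenchymal genes 1 fell, the repressor Snai2 (log2 difference -0.24 ± 0.051, adjusted p = 0.0299). These shares, 2.38% and 4.76%, stood beside 3.82% of all genes. Snai2 lost its call without fibrillar replicate 2 or 3 or Matrigel replicate 1, 2 or 3 (adjusted p up to 0.106), and after quantile normalization again. Cdh1 was at 9.06, 9.06 and 9.11 against 9.02, 9.12 and 9.06, with overlapping groups. Among 31 mammary luminal and milk genes 1 rose and 5 fell. Wfdc2, a whey acidic protein domain secretory protein, was at 10.33, 10.30 and 10.29 against 9.69, 9.64 and 9.60 (log2 difference 0.67 ± 0.043, adjusted p = 0.000156). Xdh, the xanthine dehydrogenase needed for milk fat secretion, was at 9.90, 10.04 and 9.99 against 10.33, 10.63 and 10.55 (log2 difference -0.53 ± 0.086, adjusted p = 0.0105). The protease inhibitor Slpi was at 7.80, 7.61 and 7.67 against 8.44, 8.22 and 8.18 (log2 difference -0.59 ± 0.074, adjusted p = 0.00287). Wfdc2 and Slpi, both secreted antiproteases by sequence family, differed in sign. Stat5a, the transcription factor of prolactin signalling, fell by 0.26 (adjusted p = 0.0416) but lost its call in every refit but those without non-fibrillar replicate 1 and 3 (adjusted p up to 0.125). The 5 lower luminal genes became 3 without fibrillar replicate 1, 2 or 3 or Matrigel replicate 2 or 3 or non-fibrillar replicate 2, and 3 under either rescaling.

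Of 61 mitosis genes 15 rose in fibrillar collagen and none fell, 24.6% beside 1.45% of all genes, with a median log2 difference of 0.22. The differences were small, from 0.04 to 0.38. Kif2c, a kinesin that corrects chromosome attachment, was at 8.28, 8.24 and 8.25 in fibrillar collagen and 7.88, 7.90 and 7.86 in Matrigel (log2 difference 0.38 ± 0.044, adjusted p = 0.00197). Top2a, the topoisomerase that untangles chromosomes, was at 9.96, 9.93 and 9.92 against 9.64, 9.63 and 9.62 (log2 difference 0.31 ± 0.046, adjusted p = 0.00732). Foxm1, a transcription factor of late cell cycle genes, was at 9.23, 9.12 and 9.16 against 8.86, 8.89 and 8.89 (log2 difference 0.29 ± 0.047, adjusted p = 0.0103). The groups were apart by more than their spread in each. The mitotic kinase Aurkb was at 10.05, 9.99 and 9.99 against 9.74, 9.76 and 9.71 (log2 difference 0.27 ± 0.045, adjusted p = 0.0107). Cdk1, the central mitotic kinase, was at 11.09, 11.07 and 11.07 against 11.04, 10.82 and 10.87 and did not pass (adjusted p = 0.139), but did without Matrigel replicate 1 (adjusted p = 0.0250). A second, dimmer probe set for Top2a differed by 0.07 and did not pass, and Top2a was not called when its probe sets were averaged.

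The mitosis count moved with the arrays and the scaling. It was 7 without fibrillar replicate 1 or 2 and 6 without Matrigel replicate 2 or 3, 9 in a fit of the 6 arrays alone and 24 after quantile normalization again. By array, the mean over the list varied within each group: fibrillar replicate 3 lay 0.05 below the mean of the 9 arrays and fibrillar replicate 1 lay 0.13 above it, while the Matrigel arrays lay 0.10, 0.20 and 0.24 below.

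DNA replication and G1/S genes rose in 10 of 58 members and fell in none, with a median of 0.12. Rrm1, the large subunit of ribonucleotide reductase, was at 10.62, 10.57 and 10.55 in fibrillar collagen against 10.26, 10.28 and 10.32 in Matrigel (log2 difference 0.29 ± 0.040, adjusted p = 0.00437). Cdc6, which loads the replicative helicase, was at 7.01, 6.93 and 7.03 against 6.53, 6.65 and 6.74 (log2 difference 0.35 ± 0.066, adjusted p = 0.0195), and Exo1, a repair exonuclease, differed by 0.33 (adjusted p = 0.0131). The helicase subunits Mcm2, Mcm3 and Mcm4, which head the list, had differences of 0.19, 0.15 and 0.21 and did not pass (adjusted p = 0.0568, 0.249 and 0.127), although Mcm2 did after quantile normalization again (adjusted p = 0.0325). Cdc6 lost its call without fibrillar replicate 1 or 3 or Matrigel replicate 1 or 2 (adjusted p up to 0.069), and Exo1 without Matrigel replicate 2 (0.0544). The count of 10 became 2 without fibrillar replicate 1, 6 without fibrillar replicate 2, 5 without fibrillar replicate 3, 2 without Matrigel replicate 2 and 3 without Matrigel replicate 3. Ccnd1, the D-type cyclin that starts G1 progression, was at 11.94, 11.94 and 12.03 against 11.49, 11.53 and 11.54 (log2 difference 0.45 ± 0.049, adjusted p = 0.00132) and kept its call in all refits. Of 17 cell cycle inhibitors 2 fell and none rose. Gas1, a growth arrest gene at the membrane, was at 8.75, 8.73 and 8.88 against 9.33, 9.27 and 9.21 (log2 difference -0.48 ± 0.081, adjusted p = 0.0119), a call lost without fibrillar replicate 2 or Matrigel replicate 2 (adjusted p up to 0.0514). The inhibitor count was 1 without fibrillar replicate 1 or 3 or Matrigel replicate 1 or 3 or non-fibrillar replicate 1 or 2 and 0 without fibrillar replicate 2 or Matrigel replicate 2, and 1 under either rescaling. The kinase inhibitors Cdkn1b and Cdkn1c did not pass (adjusted p = 0.929 and 0.668).

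Late cell cycle promoters are known for the cell cycle homology region, with the letters TTTGAA, which the repressor complex DREAM and activators bind. These letters were searched on both strands of the RefSeq promoters of build GRCm38.p6, from 250 bases before to 50 after each start. Promoters were found for 9 of the 15 called mitosis genes and 8 held the letters, as did 29 of 43 promoters of members that were not called and 17.3% of promoters of all genes tested. The called and the other members thus held it at 88.9% and 67.4%. Windows of 4 called genes, written on the gene's own strand, are printed because they hold the motif upstream of the start, with the match in capitals (TTCAAA where it lies on the opposite strand).
Kif2c, chr4:117178850-117178895, minus strand: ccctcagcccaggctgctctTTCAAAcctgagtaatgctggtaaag
Top2a, chr11:99024343-99024388, minus strand: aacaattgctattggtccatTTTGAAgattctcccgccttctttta
Ncapg, chr5:45669875-45669920, plus strand: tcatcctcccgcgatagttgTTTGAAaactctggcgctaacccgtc
Espl1, chr15:102296246-102296291, plus strand: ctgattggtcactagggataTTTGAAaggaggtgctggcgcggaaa
A match is a description of letters and not a bound site. Ncapg, a condensin subunit, and Espl1, the protease that separates sister chromatids, fall outside the rule for named genes and were chosen for these windows after their values were seen.

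Of 42 interferon response genes measured, 19 fell in fibrillar collagen and none rose, 45.2% beside 2.37% of all genes, with a median log2 difference of -0.31 and single differences from -0.97 for Ifit3 to -0.0033 for Uba7. Interferon-stimulated genes are induced through the STAT and IRF factors and encode antiviral effectors, sensors and regulators. Ifit3, whose product binds viral RNA together with Ifit1, was at 6.91, 6.99 and 6.46 in fibrillar collagen and 7.71, 7.59 and 7.95 in Matrigel, a fold of 1.95 (log2 difference -0.97 ± 0.14, adjusted p = 0.00568). Ifit1 was at 7.99, 7.80 and 7.51 against 8.51, 8.42 and 8.56 (log2 difference -0.73 ± 0.10, adjusted p = 0.00437). Fibrillar replicate 3 was the lowest array for both. Irf7, the factor that amplifies the interferon response, was at 7.44, 7.29 and 7.40 against 8.0, 8.15 and 7.94 (log2 difference -0.66 ± 0.082, adjusted p = 0.00286), and Gbp3, a guanylate-binding GTPase, at 7.64, 7.48 and 7.49 against 8.37, 8.53 and 8.27 (log2 difference -0.85 ± 0.077, adjusted p = 0.000521). Rtp4, a chaperone and interferon-induced regulator, was at 9.09, 9.02 and 8.91 against 9.67, 9.57 and 9.54 (log2 difference -0.59 ± 0.075, adjusted p = 0.00313). The groups did not overlap in any of these genes.

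Ifit2 was also called, and lost its call without fibrillar replicate 1, 2 or 3 or Matrigel replicate 1 or 3 (adjusted p up to 0.0712). The other called members, named outside the rule, were Rsad2, Usp18, Gbp7, Oasl2, Zbp1, Samd9l, Herc6, Xaf1, Cmpk2, Mx1, Parp14, Sp100 and Stat2. The Ifit, Gbp and Oas genes have close copies, so the level of one may include another. The count of 19 became 11 without fibrillar replicate 2 or Matrigel replicate 1 or 2, 12 without fibrillar replicate 3 or Matrigel replicate 3, and 12 in a fit of the 6 arrays alone. The mean over the list, relative to the 9-array mean, was -0.19, -0.32 and -0.32 on the fibrillar arrays and 0.09, 0.09 and 0.05 on the Matrigel arrays. The leukocyte marker Ptprc did not pass (adjusted p = 0.644). None of the 13 lymphocyte genes was called by limma, and 2 had an unadjusted p under 0.05.

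**Figure D4:**
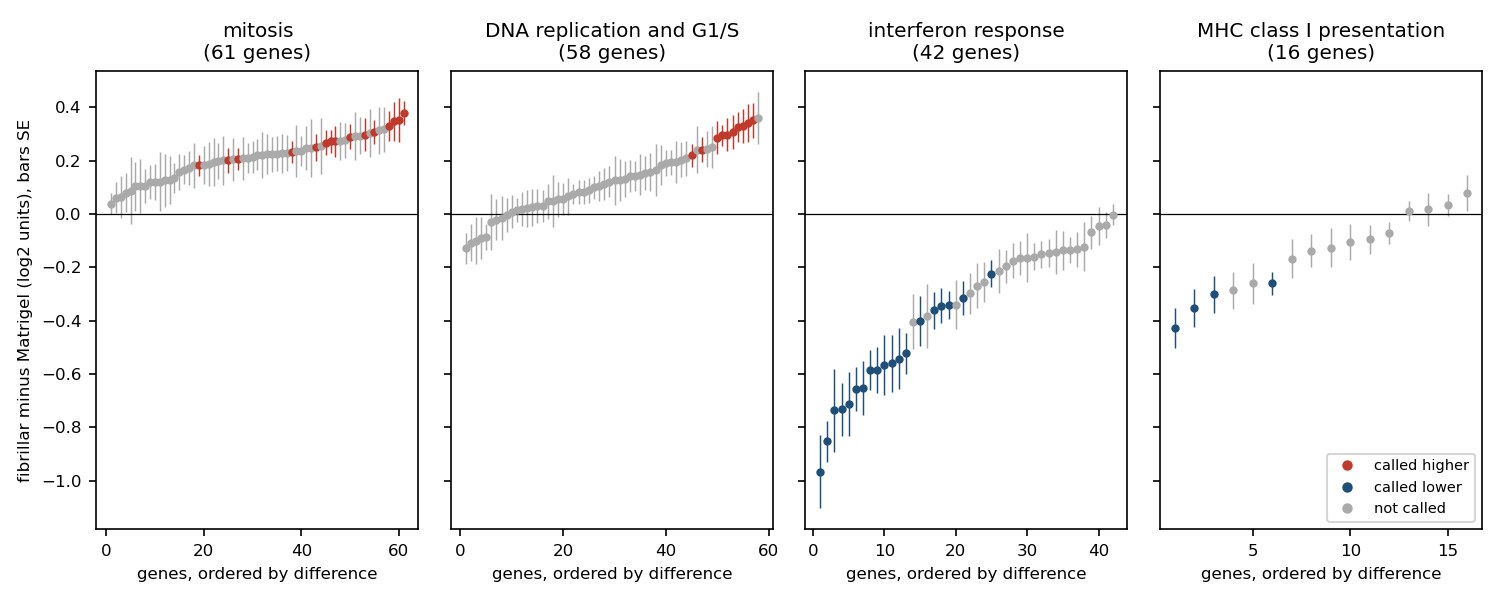
Fibrillar minus Matrigel log2 difference with its standard error for every measured member of the mitosis, DNA replication, interferon and MHC class I lists, ordered by size. The 61 mitosis differences run from 0.04 to 0.38 and the interferon differences down to -0.97, and coloured points passed limma's test.

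The interferon-stimulated response element was searched as TTTC, any 2 bases and TTTC again, on both strands of the same promoters. A gene was counted if any of its promoters held the element. Among genes with a promoter, it was present in 6 of the 14 called members (42.9%). It was also present in 8 of 18 members that were not called (44.4%) and in 3.89% of all genes tested. Called and uncalled interferon genes therefore held it at a similar share. The windows of 4 called genes are printed because they hold the motif upstream of the start (Rsad2, chosen after its values were seen, encodes the antiviral enzyme viperin), with all matches in the window in capitals.
Ifit1, chr19:34640765-34640814, plus strand: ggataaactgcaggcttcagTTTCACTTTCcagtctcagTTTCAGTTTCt
Ifit3, chr19:34583353-34583402, plus strand: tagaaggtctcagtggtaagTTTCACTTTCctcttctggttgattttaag
Rsad2, chr12:26456543-26456592, minus strand: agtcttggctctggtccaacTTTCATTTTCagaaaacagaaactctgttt
Gbp3, chr3:142559979-142560028, plus strand: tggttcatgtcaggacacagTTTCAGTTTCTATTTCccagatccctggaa
In Gbp3 the capitals span a pair of overlapping matches. No binding was measured.

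MHC class I presentation genes fell in 4 of 16 members and rose in none. The immunoproteasome subunit Psmb10 was at 9.31, 8.99 and 9.18 against 9.66, 9.58 and 9.51 (log2 difference -0.43 ± 0.076, adjusted p = 0.0149), the peptide-trimming enzyme Erap1 at 7.93, 7.84 and 7.90 against 8.13, 8.21 and 8.11 (log2 difference -0.26 ± 0.044, adjusted p = 0.012), and the peptide transporter Tap1 at 6.71, 6.67 and 6.58 against 6.92, 6.98 and 7.13 (log2 difference -0.35 ± 0.071, adjusted p = 0.0262). B2m, the light chain of class I molecules, was at 12.27, 12.44 and 12.25 against 12.34, 12.55 and 12.56 and did not pass (adjusted p = 0.256). Its groups overlapped. Psmb10 lost its call without Matrigel replicate 1 or 2 (adjusted p up to 0.0592) and Tap1 without fibrillar replicate 1, 2 or 3 or Matrigel replicate 2 or 3 (up to 0.0899), while Erap1 was called in all 9 refits. The count of 4 was 2 without fibrillar replicate 1, 2 or 3 or Matrigel replicate 1 and 1 without Matrigel replicate 2. Casp1, the inflammasome protease that activates interleukin-1 beta, was at 6.96, 7.09 and 6.96 against 7.996, 7.73 and 7.91 (log2 difference -0.87 ± 0.080, adjusted p = 0.000549). No fibrillar array reached a Matrigel array. The 34 constitutive proteasome genes had 0 calls in limma, with 4 at an unadjusted p under 0.05, and a median of 0.00061.

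Of 56 lysosomal genes 11 fell in fibrillar collagen and none rose, with a median of -0.13. Lipa, the lysosomal acid lipase, was at 11.51, 11.51 and 11.55 against 11.93, 12.06 and 12.04 (log2 difference -0.48 ± 0.051, adjusted p = 0.00118). Gla, the alpha-galactosidase, was at 10.47, 10.49 and 10.55 against 10.89, 10.99 and 10.86 (log2 difference -0.41 ± 0.056, adjusted p = 0.00421). Gpnmb, a glycoprotein of lysosomes and melanosomes, was at 8.08, 8.15 and 8.19 against 8.76, 8.94 and 8.81, a fold of 1.62 (log2 difference -0.69 ± 0.062, adjusted p = 0.000521). All 3 lay below every Matrigel array. The cathepsins Ctsa, Ctsb and Ctsd, which head the list, differed by -0.08, -0.11 and -0.09 and did not pass (adjusted p = 0.409, 0.209 and 0.318). Cd68, a lysosomal membrane protein and macrophage marker, was at 8.34, 8.39 and 8.63 against 8.88, 9.05 and 9.07 (log2 difference -0.55 ± 0.081, adjusted p = 0.0068). It was the 1 member called of 18 macrophage genes, whose summed level (log2 of the sum of unlogged values) was 10.003 to 10.12 on the fibrillar and 10.23 to 10.31 on the Matrigel arrays. Without Cd68 the sums were 9.43 to 9.48 and 9.47 to 9.52. The part of other cells in the lysosomal result was not tested. The lysosomal count in limma was 7 without fibrillar replicate 1, 6 without fibrillar replicate 2 and 5 without Matrigel replicate 2.

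Of 17 subunits of the vacuolar proton pump 3 fell and none rose, with a median of -0.15. Atp6v0a1 was at 10.55, 10.59 and 10.63 against 10.77, 10.88 and 10.83 (log2 difference -0.23 ± 0.044, adjusted p = 0.0195), with the groups apart. That call was lost without fibrillar replicate 1 or 2 or Matrigel replicate 2 or 3 (adjusted p up to 0.0711). The pump count in limma was 1 without Matrigel replicate 3 and 0 without fibrillar replicate 1 or 2 or Matrigel replicate 2, and it was 1 with array medians set equal. Of 33 autophagy genes 4 fell and none rose. Gabarapl1, which coats autophagosome membranes, was at 9.45, 9.49 and 9.51 against 9.83, 9.94 and 9.90 (log2 difference -0.41 ± 0.045, adjusted p = 0.00147). Autophagy calls numbered 2 without Matrigel replicate 1, 2 or 3. Atg14, a subunit of the initiating lipid kinase, fell by 0.27 (SE 0.041, adjusted p = 0.00747). The initiating kinases Ulk1 and Ulk2 and the scaffold Becn1 had overlapping groups and did not pass (adjusted p = 0.99, 0.563 and 0.997).

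**Figure D5:**
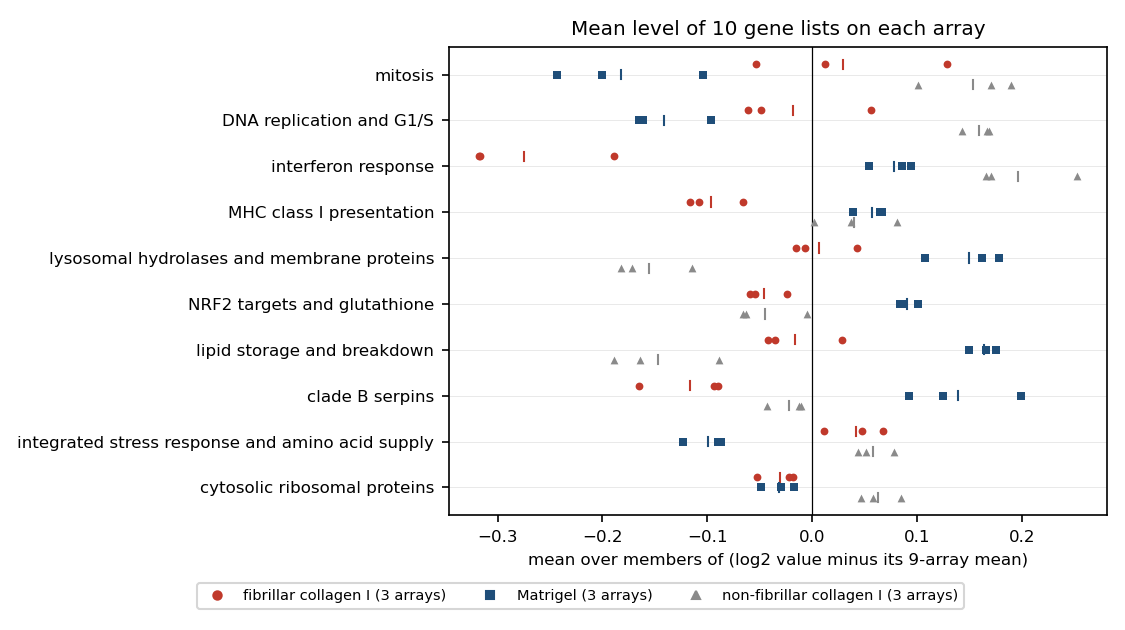
Mean over list members of the log2 value minus the gene's 9-array mean, for 10 lists on each of the 9 arrays, with a short line at the mean of each group. Fibrillar and Matrigel arrays are apart for the mitosis and interferon lists, and overlap for cytosolic ribosomal proteins.

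Of 53 NRF2 targets and glutathione genes 12 fell and none rose, with a median of -0.09. NRF2 is the transcription factor that answers oxidants and electrophiles. Hmox1, the haem-degrading enzyme, was at 10.41, 10.34 and 10.47 in fibrillar collagen and 10.93, 11.09 and 10.95 in Matrigel (log2 difference -0.59 ± 0.068, adjusted p = 0.00193). Slc7a11, the cystine importer that feeds glutathione synthesis, was at 9.85, 9.97 and 9.96 against 10.22, 10.36 and 10.27 (log2 difference -0.36 ± 0.057, adjusted p = 0.00946). Gclm, the modifier subunit of the first enzyme of that synthesis, was at 10.67, 10.65 and 10.56 against 10.87, 10.89 and 10.93 (log2 difference -0.27 ± 0.044, adjusted p = 0.0107). The groups were apart in all of these. Nqo1, a common marker of NRF2 activity, was at 11.42, 11.53 and 11.50 against 11.62, 11.56 and 11.59. Its groups did not overlap either, but it did not pass (adjusted p = 0.315). The catalytic subunit gene Gclc did not pass either (adjusted p = 0.48). Ephx1, an epoxide hydrolase, fell by 0.42 (adjusted p = 0.0103). The count of 12 became 5 without fibrillar replicate 1 or 2 and without Matrigel replicate 2 or 3.

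Among 22 selenoproteins 4 fell and none rose, with a list median of -0.05. Besides Selenop these included the glutathione peroxidase Gpx1, at 10.75, 10.63 and 10.67 against 11.10, 11.07 and 11.10 (log2 difference -0.40 ± 0.044, adjusted p = 0.00132), and Selenom, of the endoplasmic reticulum, at 8.68, 8.63 and 8.64 against 9.32, 9.17 and 9.17 (log2 difference -0.57 ± 0.052, adjusted p = 0.000546). Dio2, which activates thyroid hormone, was at 8.97, 9.06 and 9.17 against 9.37, 9.62 and 9.43 (log2 difference -0.41 ± 0.084, adjusted p = 0.0288). Fibrillar arrays were below Matrigel in each. Dio2 lost its call without fibrillar replicate 1 or 2 or Matrigel replicate 2 or 3 (adjusted p up to 0.0975).

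Of 35 genes for lipid storage and breakdown 6 fell and none rose, with a median of -0.12. Mgll, which releases fatty acids from monoacylglycerol, was at 7.001, 7.29 and 7.58 against 8.56, 8.94 and 8.80, a fold of 2.78 (log2 difference -1.48 ± 0.22, adjusted p = 0.00669). Abhd5, the activator of the first lipase of lipid droplets, was at 9.67, 9.64 and 9.64 against 10.14, 10.05 and 10.07 (log2 difference -0.44 ± 0.042, adjusted p = 0.000702). Fabp4, a fatty acid carrier, was at 5.57, 5.35 and 5.62 against 6.30, 6.20 and 6.47 (log2 difference -0.81 ± 0.083, adjusted p = 0.000902), and the lipoprotein lipase Lpl at 9.35, 9.30 and 9.34 against 9.74, 9.70 and 9.64 (log2 difference -0.36 ± 0.054, adjusted p = 0.00669). No fibrillar array reached a Matrigel array for these. Fabp4 and Lpl are also the 2 called members of 11 adipocyte markers, of which Adipoq did not pass (adjusted p = 0.776). The summed level of the marker list was 11.22 to 11.28 on the fibrillar and 11.45 to 11.49 on the Matrigel arrays. The sums were 10.73 to 10.80 and 10.86 to 10.97 with these genes left out, and their part in the lipid result was not tested.

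Fasn, the fatty acid synthase, was the member of 26 synthesis genes that rose, at 11.64, 11.66 and 11.67 against 11.19, 11.32 and 11.32 (log2 difference 0.38 ± 0.050, adjusted p = 0.00343). The fibrillar arrays were above both other groups, with non-fibrillar arrays at 11.23, 11.19 and 11.11 (fibrillar minus non-fibrillar 0.48, adjusted p = 0.000968). Dgat1, which completes triglyceride, fell by 0.46 (adjusted p = 0.0141), a call lost without fibrillar replicate 1 or 2 or Matrigel replicate 2 or 3 (adjusted p up to 0.0588). Of 12 liver X receptor targets 3 fell and none rose. The receptor gene Nr1h3 was at 8.97, 9.04 and 9.30 against 9.62, 9.73 and 9.77 (log2 difference -0.60 ± 0.11, adjusted p = 0.0156), a call lost without the same 4 arrays (adjusted p up to 0.065). Smpdl3a, a secreted phosphodiesterase, was at 8.23, 8.13 and 8.23 against 8.77, 8.73 and 8.70 (log2 difference -0.54 ± 0.049, adjusted p = 0.000521). The cholesterol exporter Abca1 was at 8.90, 9.08 and 9.05 against 8.77, 9.06 and 8.96 and did not pass (adjusted p = 0.661). Of 21 cholesterol genes 2 rose, the synthesis enzymes Pmvk and Msmo1, by 0.24 and 0.18 (adjusted p = 0.0245 and 0.0466). Pmvk lost its call without fibrillar replicate 2 or 3 or Matrigel replicate 2 or 3 (adjusted p up to 0.0915) and Msmo1 without fibrillar replicate 1, 2 or 3 or Matrigel replicate 1, 2 or 3 or non-fibrillar replicate 1 or 2 (up to 0.14).

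Immediate early and ERK feedback genes rose in 8 of 43 members and fell in 3. ERK is the kinase at the end of the growth factor and integrin cascade. Hbegf, an EGF receptor ligand, was at 10.05, 10.09 and 10.03 in fibrillar collagen and 9.55, 9.46 and 9.51 in Matrigel (log2 difference 0.55 ± 0.047, adjusted p = 0.000432). Etv5, a transcription factor induced by ERK, was at 8.60, 8.56 and 8.66 against 8.16, 8.09 and 8.20 (log2 difference 0.45 ± 0.044, adjusted p = 0.000706), and a second probe set for it differed by 0.51. Fosl1, an AP-1 subunit, was at 9.78, 9.71 and 9.72 against 9.41, 9.54 and 9.49 (log2 difference 0.26 ± 0.044, adjusted p = 0.0129). Fibrillar arrays lay above all Matrigel arrays for each. The immediate early gene Fos was at 5.83, 5.65 and 5.82 against 5.88, 5.74 and 5.96 with overlapping groups (adjusted p = 0.651). In the other direction the ERK phosphatase Dusp4 fell by 0.34 (adjusted p = 0.0123), lost without fibrillar replicate 2 or Matrigel replicate 2 (adjusted p up to 0.0544), and Klf10 by 0.28 (adjusted p = 0.00828). The higher calls numbered 5 without fibrillar replicate 1, 2 or 3 or Matrigel replicate 3, and the lower 1 without fibrillar replicate 2 or Matrigel replicate 2. Rgs16, a regulator that ends G protein signals, was at 9.09, 9.10 and 9.10 against 8.40, 8.32 and 8.43 (log2 difference 0.72 ± 0.062, adjusted p = 0.000443), as 1 of 15 genes of its kind called.

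TGF-beta pathway genes had 4 higher and 4 lower calls of 38, with a median of -0.01 that became 0.01 after quantile normalization again. Members of one step differed in sign. The ligand Tgfb2 was at 8.88, 8.81 and 8.87 against 9.27, 9.33 and 9.24 (log2 difference -0.43 ± 0.066, adjusted p = 0.00786) and the activin subunit Inhba at 10.52, 10.43 and 10.35 against 10.98, 10.88 and 10.94 (log2 difference -0.50 ± 0.060, adjusted p = 0.00209). Tgfb1 was at 11.10, 11.01 and 11.10 against 11.01, 11.13 and 11.14 and did not pass (adjusted p = 0.811). Of the latent TGF-beta binding proteins, Ltbp2 differed by -0.37 (adjusted p = 0.00946) and Ltbp4 by 0.31 (adjusted p = 0.00977). The transducer Smad3 was at 10.05, 9.96 and 9.93 against 9.69, 9.59 and 9.64 (log2 difference 0.34 ± 0.049, adjusted p = 0.00576), and the target Id2 at 11.97, 11.96 and 11.94 against 12.24, 12.28 and 12.32 (log2 difference -0.32 ± 0.046, adjusted p = 0.00576). Tgfb2, Inhba and Id2 were low and Smad3 high on all fibrillar arrays. The higher count was 2 without fibrillar replicate 1 or 3 or Matrigel replicate 2 or 3.

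YAP and TAZ targets, which answer to cell tension and shape, had 3 higher and 4 lower calls of 29. The list median was 0.07, with 20 positive and 9 negative differences. Those that rose were Nt5e, Myof and Wwc1. Myof differed by 0.25 to 0.33 over the 9 refits and was called in each. Wwc1 lost its call in 7 of them (adjusted p up to 0.124). The standard targets Ccn1 and Ccn2 did not pass: Ccn2 was at 7.60, 7.59 and 7.52 in fibrillar collagen and 7.30, 7.31 and 7.26 in Matrigel (adjusted p = 0.214) and Ccn1 at 10.03, 9.91 and 9.94 against 9.96, 9.97 and 9.96 (adjusted p = 0.984). Groups did not overlap for Ccn2 and did for Ccn1. Ccn2 passed without non-fibrillar replicate 1 (adjusted p = 0.0219) and in a fit of the 6 arrays alone (adjusted p = 0.0235). The lower YAP calls numbered 2 without fibrillar replicate 2 or 3 or Matrigel replicate 1 or 2. Gadd45a, a stress gene also on the p53 list, was at 8.28, 8.15 and 8.19 against 8.86, 8.95 and 8.77 (log2 difference -0.65 ± 0.061, adjusted p = 0.000571). Perp, a desmosome gene and p53 target, was at 11.20, 11.29 and 11.35 against 11.70, 11.84 and 11.83 (log2 difference -0.51 ± 0.066, adjusted p = 0.00313). These were the 2 called of 28 p53 targets. Of 38 focal adhesion and actin genes 3 rose and 1 fell. Enah, which lengthens actin filaments, was at 8.32, 8.17 and 8.16 against 8.71, 8.69 and 8.68 (log2 difference -0.48 ± 0.051, adjusted p = 0.00119). The 3 that rose, Src, Vasp and Actn1, had differences of 0.29, 0.21 and 0.18 (adjusted p = 0.0425, 0.0309 and 0.0385). Actn1 lost its call in all 9 refits, and Src and Vasp in every refit but those without non-fibrillar replicate 1 and 3 (adjusted p up to 0.127 for Src, 0.106 for Vasp and 0.107 for Actn1). The higher focal adhesion calls were 5 after quantile normalization again.

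Growth factor, guidance and cytokine genes had scattered calls. Of 62 receptor tyrosine kinase and ligand genes 3 rose and 5 fell. Angpt1, the ligand of the Tie2 receptor, was at 4.52, 4.43 and 4.63 against 5.73, 5.31 and 5.53 (log2 difference -0.998 ± 0.13, adjusted p = 0.00313), and Igfbp5, which binds insulin-like growth factors, at 5.81, 6.23 and 6.30 against 6.88, 7.0 and 7.06 (log2 difference -0.86 ± 0.11, adjusted p = 0.00313). All of these Angpt1 values lay below the array medians. Flt1, a VEGF receptor, was at 9.36, 9.39 and 9.34 against 8.97, 9.02 and 9.04 (log2 difference 0.35 ± 0.042, adjusted p = 0.00209). It was the 1 called of 15 endothelial markers, whose summed level was 10.34 to 10.36 on the fibrillar and 10.16 to 10.19 on the Matrigel arrays, and 9.32 to 9.37 against 9.31 to 9.33 without Flt1. Pecam1 did not pass (adjusted p = 0.287). Of 42 guidance genes 1 rose and 4 fell, among them Slit2, at 7.92, 7.92 and 7.92 against 8.19, 8.23 and 8.27 (log2 difference -0.32 ± 0.047, adjusted p = 0.00704), and Plxdc1, a plexin domain receptor, at 7.10, 7.14 and 7.52 against 8.29, 8.53 and 8.61 (log2 difference -1.22 ± 0.12, adjusted p = 0.00071). Both were low on all fibrillar arrays. The growth factor list had higher counts of 1 without fibrillar replicate 1, 2 or 3 or Matrigel replicate 2, and lower counts of 3 without fibrillar replicate 1, 2 or 3 or Matrigel replicate 2 and 2 without Matrigel replicate 3, and of 3 under either rescaling. The lower guidance count was 2 without fibrillar replicate 2 or Matrigel replicate 3.

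Of 56 interleukin-1 and NF-kB genes 5 rose and 2 fell. Il1a, which signals when released from epithelial cells, was at 9.46, 8.87 and 8.70 against 8.47, 7.81 and 7.93, a fold of 1.92 (log2 difference 0.94 ± 0.21, adjusted p = 0.0392). Fibrillar replicate 1 and Matrigel replicate 1 were each the highest of their group, the groups did not overlap, and the call was lost in every refit but those without fibrillar replicate 3 and Matrigel replicate 1 (adjusted p up to 0.138). The chemokine Cx3cl1 was at 9.85, 9.86 and 9.90 against 9.39, 9.30 and 9.46 (log2 difference 0.49 ± 0.052, adjusted p = 0.00121) and Ccl7 at 6.68, 6.82 and 6.96 against 7.36, 7.42 and 7.35 (log2 difference -0.56 ± 0.087, adjusted p = 0.00828). Membrane-bound Cx3cl1 was thus high and the monocyte attractant Ccl7 low in fibrillar collagen. Of 45 Notch and Wnt genes 2 rose and 3 fell. The Notch targets Hey1 and Hey2 and the Wnt target Axin2 had differences of -0.35, -0.28 and -0.39, (adjusted p = 0.0381, 0.032 and 0.0479). The calls were lost in every refit but those without Matrigel replicate 1 and non-fibrillar replicate 1 and 3 for Hey1, Matrigel replicate 2 and non-fibrillar replicate 2 and 3 for Hey2 and Matrigel replicate 3 and non-fibrillar replicate 2 for Axin2 (adjusted p up to 0.119, 0.101 and 0.138). Under either rescaling 1 Notch or Wnt gene was lower. Higher interleukin-1 and NF-kB genes numbered 3 without non-fibrillar replicate 1 or 2 and 1 without fibrillar replicate 1 or 2 or Matrigel replicate 2 or 3, and lower ones 1 without fibrillar replicate 2 or 3 or Matrigel replicate 1, 2 or 3.

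Amino acid supply genes rose in 6 of 35 members and fell in 2, with a list median of 0.18. Asns, the asparagine synthetase, was at 10.93, 10.90 and 10.91 in fibrillar collagen and 10.54, 10.57 and 10.59 in Matrigel (log2 difference 0.35 ± 0.039, adjusted p = 0.00149). Slc1a5, a glutamine importer, was at 9.17, 8.96 and 9.17 against 8.66, 8.69 and 8.71 (log2 difference 0.41 ± 0.060, adjusted p = 0.00623), and Mthfd2, a mitochondrial folate enzyme, at 9.25, 9.05 and 9.12 against 8.85, 8.74 and 8.75 (log2 difference 0.36 ± 0.063, adjusted p = 0.0148). Mthfd2 lost its call without Matrigel replicate 2 or 3 (adjusted p up to 0.0647). The stress factors Atf4 and Ddit3, which drive such genes, were at 8.68, 8.68 and 8.67 against 8.67, 8.54 and 8.60 and 8.002, 8.04 and 8.18 against 8.04, 7.98 and 8.04, with no call (adjusted p = 0.429 and 0.683). The 6 higher calls became 3 without fibrillar replicate 1 or Matrigel replicate 3, and 10 after quantile normalization again. The 2 lower became 1 without fibrillar replicate 1 or 2 or Matrigel replicate 2 or 3. The endoplasmic reticulum chaperone Hspa5 did not pass (adjusted p = 0.214). Of 35 chaperone genes 2 fell, with 1 without fibrillar replicate 1, 2 or 3 or Matrigel replicate 2.

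Energy and protein synthesis genes showed few calls. Of 67 oxidative phosphorylation genes 4 fell and none rose, 5.97% beside 2.37% of all genes, with a median of -0.08. In limma 28 of the 67 had an unadjusted p under 0.05, beside 3606 of all 19938 genes. The differences were negative in 57 members and positive in 10. Ndufc1, a subunit of complex I, was at 9.39, 9.43 and 9.36 against 9.84, 9.75 and 9.67 (log2 difference -0.36 ± 0.056, adjusted p = 0.00828), and a second probe set for it differed by -0.24 without passing. The count of 4 was 2 without Matrigel replicate 3 or non-fibrillar replicate 2 and 1 without fibrillar replicate 1, 2 or 3 or Matrigel replicate 1 or 2 or non-fibrillar replicate 1, and it was 2 after quantile normalization again and 1 with array medians set equal. Idh1, which makes NADPH in the cytosol, fell by 0.31 (SE 0.045, adjusted p = 0.00669) as 1 of 2 called among 30 citric acid cycle genes. The citric acid cycle count was 1 without fibrillar replicate 2 or Matrigel replicate 1, 2 or 3. Cytosolic ribosomal proteins had 0 calls among 45 in limma, with 1 at an unadjusted p under 0.05, a median of 0.01 and a range from -0.15 to 0.12. Of 28 hypoxia genes 1 fell and none rose, the hypoxia-inducible factor Epas1 (adjusted p = 0.0115, and 0.0507 without Matrigel replicate 2), although the list median was 0.14.

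The 3 non-fibrillar arrays place these differences beside the other form of the same protein. In the same fit of 9 arrays, non-fibrillar collagen against Matrigel gave calls for 13.8% of genes, and fibrillar against non-fibrillar collagen for 8.85%. These comparisons share arrays with the one above, so values are given side by side and nothing is read from calls they have in common. Selenop was at 6.82, 6.61 and 7.10 in non-fibrillar collagen, a difference of -1.84 from Matrigel and of 0.06 between fibrillar and non-fibrillar collagen (adjusted p = 0.816). The collagen arrays overlapped. Itga2 was at 7.89, 7.89 and 7.78, which is 1.35 above Matrigel, and fibrillar minus non-fibrillar was -0.67 (adjusted p = 0.000414). Gpnmb was at 7.46, 7.38 and 7.56, with fibrillar minus non-fibrillar at 0.67 (adjusted p = 0.000612). For Itga2 and Gpnmb the fibrillar arrays lay between the other groups.

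Interferon genes were placed otherwise. Ifit3 was at 7.83, 8.04 and 8.01 in non-fibrillar collagen, 0.21 from Matrigel (adjusted p = 0.408) and with fibrillar minus non-fibrillar at -1.17 (adjusted p = 0.0018). Gbp3 was at 8.29, 8.41 and 8.47, and fibrillar minus non-fibrillar was -0.85 (adjusted p = 0.000612). The fibrillar arrays were the low group against both others for these genes. Lama5 was at 9.46, 9.46 and 9.40, -0.14 from Matrigel, and fibrillar minus non-fibrillar was 0.46 (adjusted p = 0.000675), so here the fibrillar arrays were the high group. Serpinb5 was at 7.49, 7.69 and 7.43, above the Matrigel arrays by 0.32 (adjusted p = 0.0149), whereas fibrillar collagen was below them. Kif2c was at 8.36, 8.50 and 8.43, with fibrillar minus non-fibrillar at -0.17 (adjusted p = 0.0435), and Foxm1 at 9.07, 9.03 and 8.95, with 0.15 (adjusted p = 0.0781). Of the 61 mitosis genes 10 were lower and none higher in fibrillar than in non-fibrillar collagen, with a median of -0.12. Over all genes 8.85% were called in that comparison, both directions together. Against Matrigel, 46 of the 61 were higher in non-fibrillar collagen, with a median of 0.33, beside 13.8% of all genes called in either direction.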

How the data were processed

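Total RNA of 9 D2.OR samples was hybridised to mouse Affymetrix arrays, 3 each for fibrillar collagen I, non-fibrillar collagen I and Matrigel. The authors deposited log2 values for 35512 probe sets, made with RMA in Affymetrix Power Tools per the submitters' processing notes. No version of either is named, and the sources used here do not say if the 9 arrays went through RMA together. GEO's platform annotation gave 21789 probe sets 1 symbol, 1621 several and 12102 none. Of those with 1 symbol, 21698 matched the current RefSeq gene table. For each of 19938 genes the probe set with the highest mean was kept, which mattered for 999 genes. No filter on low values was applied. A linear model over the 9 arrays with 1 mean per group was fitted in limma 3.58.1 (R 4.3.3), and Benjamini-Hochberg adjustment ran over all genes, with calls at 0.05. The procedure was tested on simulated data with independent normal noise and added changes of 0.5 and 1 log2 units. That setting held no smaller changes and no batch, so it does not speak to these. Named genes were the 20 largest called differences each way without overlap, skipping predicted models, plus the called members with the 4 smallest p in each direction and the first 3 members of each list (6 for marker lists). Members and lists were chosen with earlier results of these data known. Promoters were searched by letter pattern. The number of arrays limits the precision. Alternatives covered the arrays fitted, a replicate block, scaling, filters on dim genes, probe set averaging, the prior, array weights, the threshold and leaving out each array.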

Additional observations from a re-analysis of the deposited data

How the results depend on the processing

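None of the 762 called genes changed sign under any alternative run, and 105 of the 177 named called genes were called in each of the 9 refits without 1 array, while 41 lost the call in at least 5. Leaving out 1 array gave 353 to 718 called genes in place of 762, 134 to 261 higher, 219 to 457 lower and 112 to 201 list genes in place of 211. The 6 arrays alone gave 460 calls, 149 higher and 311 lower. Keeping genes above the median level gave 1264, with 453 higher, 811 lower and 320 list genes. An adjusted p of 0.01 left 239, with 77 higher, 162 lower and 80 list genes. Testing all 35512 probe sets in place of the 19938 genes gave 432 called probe sets, including those without a single gene symbol. The paired fit with a replicate block called 1020 genes, of which 709 were among the 762, and 9 of the named calls were lost. Same-numbered fibrillar and Matrigel arrays had correlations of their deviations of 0.253, 0.103 and 0.0968, around the threshold of 0.1 set for pairing. These values do not settle a pairing, and the numbers were not taken to pair the arrays. Each fibrillar array correlated best with its own number, a hint from the data and not the design. Quantile normalization again lost 15 of the named calls and equal medians 17. The medians of several lists lie near 0 and change sign with scaling. With 3 arrays a group, a gene without a call is not shown to be equal between the gels.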

Other observations

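A few lists were not described above. Among 17 glycolysis genes 1 rose and none fell, and among 42 ribosome biogenesis and MYC target genes 1 rose, Cad, the enzyme that starts pyrimidine synthesis (log2 difference 0.26 ± 0.044, adjusted p = 0.0124). Cad was at 9.12, 9.05 and 9.07 in fibrillar collagen and 8.75, 8.85 and 8.87 in Matrigel, without overlap, and was called in each refit without 1 array. The glycolysis call was lost without any 1 of the 6 fibrillar and Matrigel arrays. Of 22 mammary basal genes 3 rose and 1 fell. Those that rose were Nt5e, Lifr and Lgr6, a stem cell receptor for R-spondins, at 9.14, 9.0 and 8.94 against 8.57, 8.64 and 8.61 (log2 difference 0.42 ± 0.058, adjusted p = 0.00437). The basal keratin Krt14 fell (log2 difference -0.17), a call lost in 8 of the 9 refits. The basal keratins Krt5 and Krt17 did not pass, with differences of -0.22 to -0.10 and -0.09 to -0.02 over the refits.

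The same promoter search was made for the antioxidant and lysosomal lists. Genes with a promoter were again counted if any of their promoters held the letters. The antioxidant response element core, searched as TGACNNNGC on both strands, was in 3 of 10 called members of the NRF2 list. It was in 32.4% of members that were not called and in 15.2% of all genes tested. The lysosomal CLEAR core TCACGTGA was in 1 of 11 called lysosomal genes, Gla, in 13.2% of the other members and in 1.52% of all genes tested.

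Probe sets with no single gene symbol, 13723 in number, had no part in the comparison above. In a fit over all 35512 probe sets, 21 of these 13723 were called higher and 56 lower in fibrillar collagen. That fit called 432 probe sets in all, beside 762 of 19938 genes in the main fit.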
